A study of Mus musculus with 18 samples.

Results

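Expression of 10 genes for transporters of cationic and neutral amino acids was examined in mouse embryo fibroblasts, connective tissue cells grown from embryos. The genes were Slc7a1, Slc7a2, Slc7a3, Slc7a5, Slc7a6, Slc7a7, Slc7a8, Slc3a2, Slc1a5 and Slc38a2, out of 12393 genes with a probe set of their own on the array. The list was chosen by the level of Slc7a3, which is lower in most trisomic lines. Its log2 values and their differences from the normal lines are therefore given as a description without a test, and the other 9 genes were taken with it for their function. The filter on low signals asked for a mean of 4 or more on the log2 scale. It was passed by 6 of the 10 genes (Slc7a3, Slc7a5, Slc7a6, Slc3a2, Slc1a5 and Slc38a2), and 4 fell short of it.

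The study compared 1 line with 3 copies of chromosome 1 (Ts1), 4 lines with 3 copies of chromosome 13 (Ts13), 3 lines with 3 copies of chromosome 16 (Ts16), 1 line with 3 copies of chromosome 19 (Ts19) and 9 lines with normal chromosomes (Wt). Each line was measured on 1 Affymetrix array. All cells were kept in DMEM containing 10% fetal calf serum and 5 mM glutamine for 2 passages, per the labels, in every group. The labels call these different lines without tying each to an embryo. Every p-value below sets a difference of group means against a spread estimated from these lines only. That spread was moderated for each gene with the values of all tested genes. The titles open with 1 of 7 numbers that trisomic and Wt lines share, and what it stands for is not given.

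Amino acids cross the cell membrane on carriers of several families. The cationic amino acid transporters (Slc7a1, Slc7a2 and Slc7a3) bring in arginine, lysine and ornithine on their own. The light chains (Slc7a5, Slc7a6, Slc7a7 and Slc7a8) work only when joined by a disulfide bridge to the glycoprotein CD98, the heavy chain encoded by Slc3a2, and they exchange 1 amino acid for another. Slc1a5 exchanges small neutral amino acids including glutamine in a sodium-dependent way, and Slc38a2 takes up small neutral amino acids together with sodium and is known as a gene switched on by amino acid shortage. Of the 10 genes only Slc3a2 lies on a chromosome that was trisomic here, chromosome 19. Slc7a3 is on the X chromosome.

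The lines had the fibroblast profile their label states. All 14 fibroblast markers checked, such as Vim and Col1a1, passed the filter, with an average of 12.91 to 13.50 in Ts13 lines and 12.70 to 13.80 in Wt lines on the log2 scale. None of the 8 endothelial, 5 hepatocyte, 3 erythroid and 7 pluripotency markers measured passed it, and 2 of 8 epithelial and 1 of 7 skeletal muscle markers did. Of 13 macrophage markers 2 passed. The mean of the 13 was 5.23 in Ts13 replicate 4 and 4.41 in Wt replicate 8, against 2.49 to 2.96 on the other 16 arrays. RNA quality differed as well. The Gapdh control probe sets at the 3' and 5' ends of that message differed (3' minus 5', log2) by 5.57 to 6.94 on 3 arrays (Ts13 replicates 3 and 4 and Ts16 replicate 1), which are called 3'-biased below, and by -0.20 to 1.41 on the other 15.

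Slc7a3 was low in all Ts13 lines and in the Ts1 line. In Ts13 its log2 values were 6.73, 7.08, 7.94 and 6.69 in replicates 1 to 4. In Ts16 they were 9.49, 8.08 and 8.96, in Ts1 7.99 and in Ts19 8.79. The 9 Wt lines ran from 8.82 over a median of 9.38 to 10.12. Every Ts13 line was thus below every Wt line, as for 1.04% of tested genes outside chromosome 13. The Ts16 lines overlapped with the Wt lines, and the Ts19 value lay just under the lowest Wt value.

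The mean of Slc7a3 was 7.11 ± 0.58 in Ts13 (SD, n = 4) and 9.43 ± 0.36 in Wt (SD, n = 9), a log2 difference of -2.32 ± 0.29 (SE) or 5.01-fold lower in Ts13. In Ts16 the mean was 8.84 ± 0.71 (SD, n = 3), 1.51-fold lower than in Wt, with a log2 difference of -0.59 ± 0.32 (SE). The Ts1 line differed from the Wt mean by -1.44 and the Ts19 line by -0.65 on the log2 scale, with 1 array each and no measure of their own spread. Over all 9 trisomic lines 8 were below the Wt mean and 7 below the lowest Wt line. In order of their means the groups ran Ts13, Ts1, Ts19, Ts16 and Wt. The neighbours Ts19 and Ts16 differed by less than the SD of Ts16, and so did Ts16 and Wt. These differences chose the list and are not evidence for it.

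**Figure D1:**
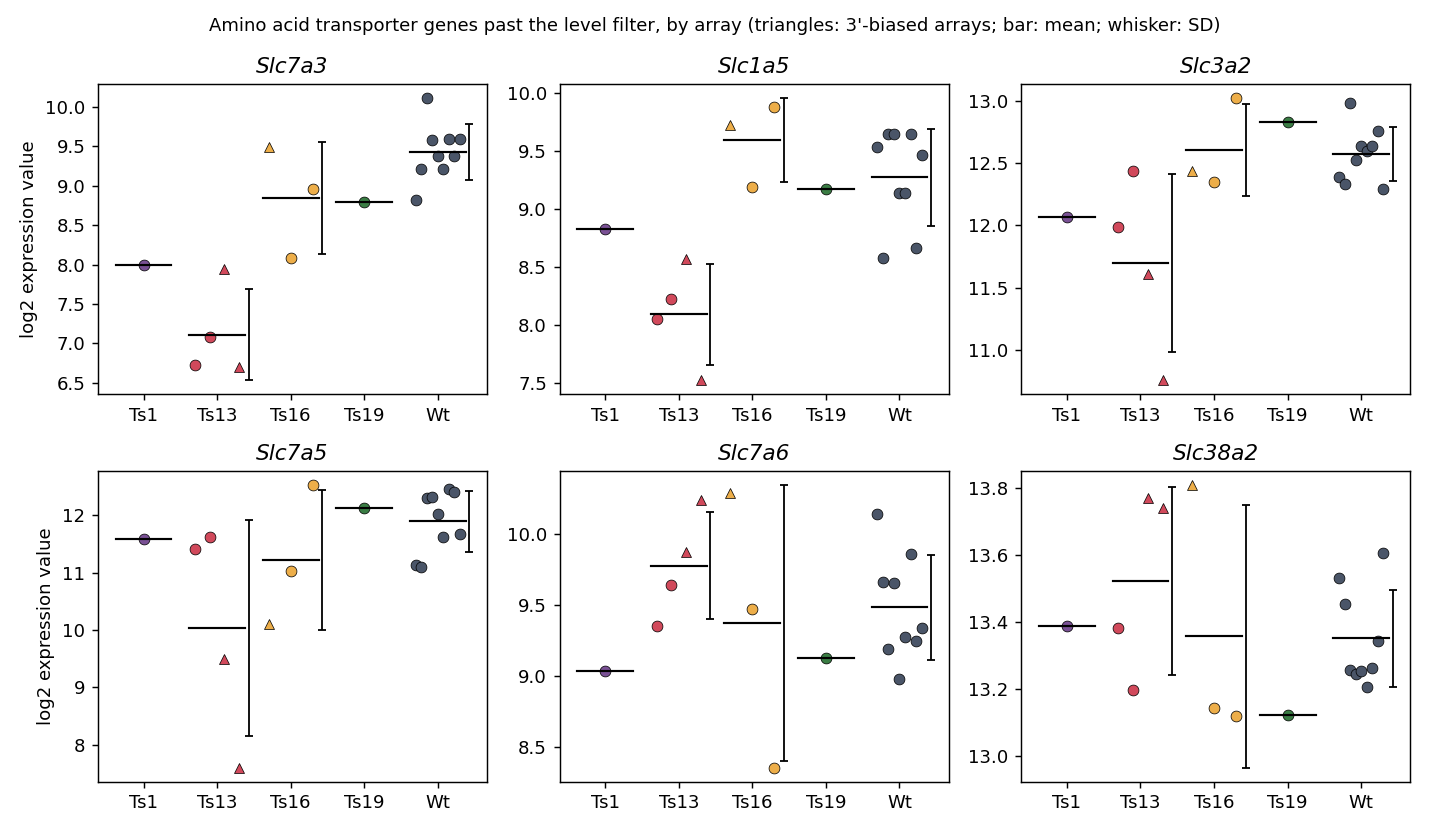
Log2 expression values (vertical axis) of the 6 transporter genes past the level filter in each array, by group (horizontal axis); bars are group means, whiskers SD where n is above 1, and triangles mark the 3'-biased arrays. The 4 Ts13 lines have lower Slc7a3 (6.69 to 7.94) and Slc1a5 (7.52 to 8.56) than all 9 Wt lines. Such a gap was found in 1.04% of tested genes outside chromosome 13. The lowest 3 values of Slc7a5 are the triangles.

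Slc7a3 was also low in the Ts13 lines without 3' bias. These 2 lines had the values 6.73 and 7.08, and without the 3'-biased arrays the log2 difference of Ts13 from Wt was -2.53. Among the Ts16 lines the 3'-biased replicate 1 had the highest Slc7a3, 9.49, and without it Ts16 differed from Wt by -0.92. Leaving out Ts16 replicate 2, the line with the lowest value, gave -0.21 for Ts16.

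Slc7a3 was next compared within the shared first numbers. Set against the mean of the Wt lines of its own number, Slc7a3 differed by -2.85, -2.22, -1.36 and -2.90 in Ts13 replicates 1 to 4. The differences were 0.02, -1.14 and -0.51 in Ts16 replicates 1 to 3, -1.60 in Ts1 and -0.60 in Ts19. So 8 of 9 trisomic lines were below the mean of the Wt lines of their number, and the median difference of the 9 was -1.36. The exception was Ts16 replicate 1. In Ts16 and Wt pairs of the same replicate number the differences were 0.66, -1.14 and -1.16. The Wt lines of number 89 themselves lay 1.29 apart, at 8.82 and 10.12, which is the whole range of Slc7a3 among Wt lines, while those of number 780 differed by 0.17.

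**Figure D2:**
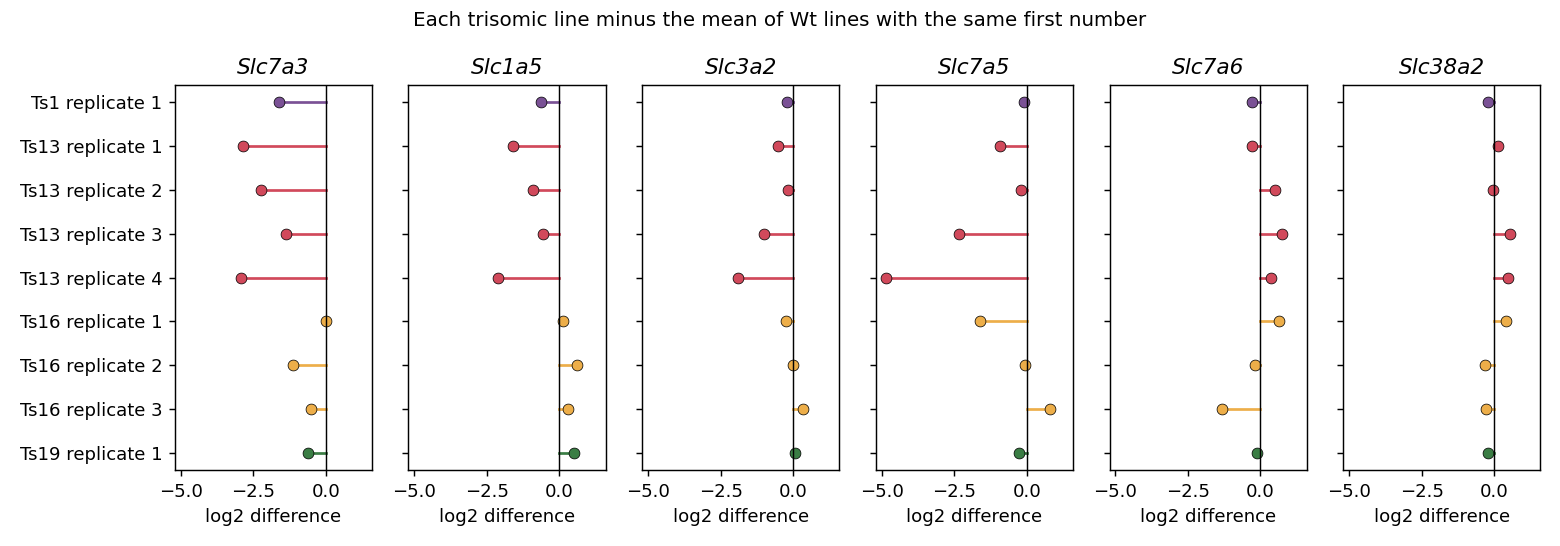
Log2 difference of each trisomic line (rows) from the mean of the Wt lines with the same first number (horizontal axis), for the 6 transporter genes. For Slc7a3 8 of 9 lines lie left of zero, down to -2.90 in Ts13 replicate 4; for Slc1a5 the 4 Ts13 lines and the Ts1 line lie left of zero and the 3 Ts16 lines and the Ts19 line right of it.

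Because Slc7a3 is X-linked, its level was also set beside that of Xist, the RNA that coats the inactive X chromosome in female cells. Xist and the limit of 8 used for it were chosen after the values were seen. In Ts13 replicate 4 Xist was at 11.17 and Slc7a3 at 6.69, and in the 3 other Ts13 lines Xist was at 2.20 to 2.56 and Slc7a3 at 6.73 to 7.94. Among Wt lines the 5 with Xist at 10.26 to 13.64 had Slc7a3 at 9.21 to 9.60, and the 4 with Xist at 2.27 to 2.36 had it at 8.82 to 10.12. The Ts1 line had Xist at 2.37 and Slc7a3 at 7.99, and the Ts19 line 13.70 and 8.79. In Ts16, replicate 3 had Xist at 11.76 and Slc7a3 at 8.96, and the 2 other lines had Xist at 2.35 to 2.51 and Slc7a3 at 8.08 to 9.49. High Xist in Ts13 rests on 1 line, and the part of Xist or of sex in the level of Slc7a3 was not tested. As Slc7a3 is also known from neurons, neural markers were checked. The 12 of them averaged 4.17 to 4.57 in Ts13 and 3.83 to 4.36 in Wt lines. Of the 12, 8 had a mean below 4, Map2 and Dcx among them, and the highest was Stmn2 with a mean of 8.64. The part of such markers in the level of Slc7a3 was not tested.

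The other cationic transporters, Slc7a1 and Slc7a2, were below the filter. The probe set of Slc7a1, the widely expressed carrier of this group, lay between 1.95 and 2.06 in all 18 arrays. The 3 probe sets of Slc7a2, best known from liver and activated macrophages, had means of 2.24 to 3.10 over the arrays. Their highest values were 4.30 in Wt replicate 6 and 3.86 in Wt replicate 9, on the same probe set, while the other probe sets of the gene read 2.23 to 2.89 on these arrays. Markers of cell types foreign to these cultures had similar values, and such values do not show whether the genes were transcribed.

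**Figure D3:**
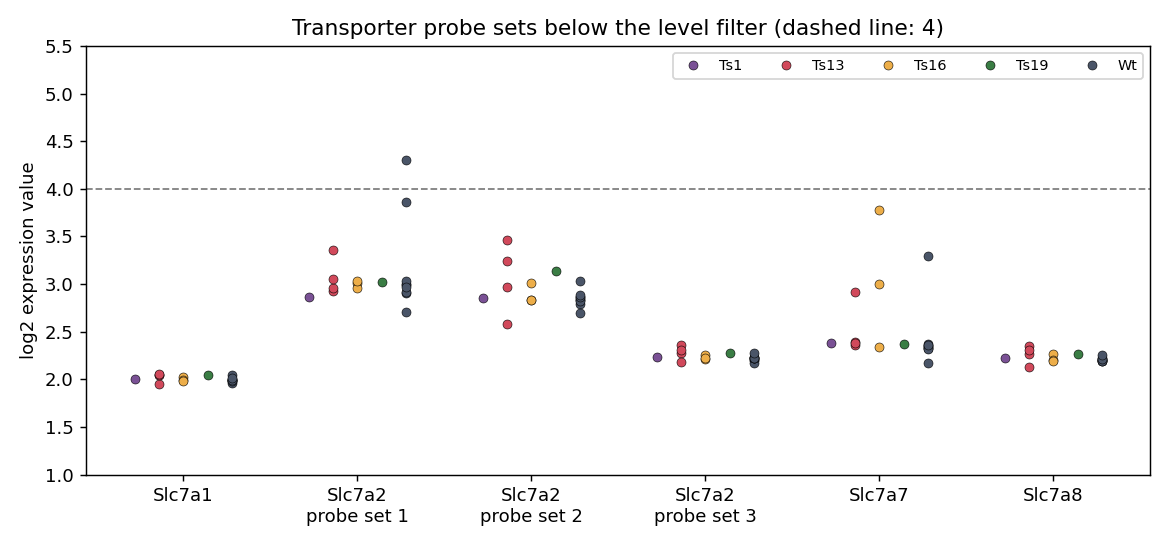
Log2 expression values (vertical axis) of the 6 probe sets of Slc7a1, Slc7a2, Slc7a7 and Slc7a8 in each array, coloured by group, with a dashed line at the filter level of 4. Of 108 values, 1 is at 4 or more, Slc7a2 at 4.30 in Wt replicate 6.

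Slc3a2, the heavy chain of CD98, was below the Wt mean in all 4 Ts13 lines but did not pass the test. The Ts13 lines had 11.99, 12.44, 11.61 and 10.76, the Ts16 lines 12.44, 12.35 and 13.03, and the Wt lines 12.29 to 12.98 with a median of 12.60. Of the 4 Ts13 lines 3 were below the lowest Wt line. The means were 11.70 ± 0.71 in Ts13 (SD, n = 4) and 12.57 ± 0.22 in Wt (SD, n = 9), a log2 difference of -0.88 ± 0.23 (SE, limma adjusted p = 0.068). The 2 lowest values came from the 3'-biased replicates 3 and 4, and the difference was -0.36 without the 3'-biased arrays. In Ts16 the difference was 0.03 ± 0.26 (SE, limma adjusted p = 0.98).

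In the Ts19 line, which has an extra copy of the gene, Slc3a2 stood at 12.83. The Wt mean was 12.57, so the difference was 0.26 on the log2 scale, inside the range of the Wt lines, and against the Wt line of its own number it was 0.07. In Ts1, Slc3a2 was at 12.07, lower than every Wt line. It was the 1 of 5 genes below the Wt range in Ts1, leaving Slc7a3 aside, beside 10.3% of all tested genes. In Ts19 that 1 gene was Slc38a2, beside 11.9% of all tested genes. None of the 5 lay 2-fold or more from the Wt mean in either line, where 11% of all tested genes did so in Ts1 and 5.47% in Ts19. With 1 array in each group there is no replicate check of these values.

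Slc7a5, the light chain that carries leucine and other large neutral amino acids, had the largest SD of the 6 genes past the filter in Ts13, Ts16 and Wt lines alike. Its values were 11.40, 11.62, 9.49 and 7.61 in Ts13, 10.10, 11.03 and 12.52 in Ts16, 11.58 in Ts1 and 12.13 in Ts19. The Wt lines ran from 11.10 over a median of 12.03 to 12.45. The lowest 3 of the 18 values were those of the 3 3'-biased arrays, 7.61 to 10.10, and the other 15 arrays had 11.03 to 12.52.

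The mean of Slc7a5 was 10.03 ± 1.88 in Ts13 (SD, n = 4) and 11.89 ± 0.53 in Wt (SD, n = 9). The log2 difference was -1.86 ± 0.60 (SE, limma adjusted p = 0.11), and -0.38 without the 3'-biased arrays. In Ts16 it was -0.68 ± 0.67 (SE, limma adjusted p = 0.81), and here replicate 3 was above all Wt lines. Single lines moved both values. The difference of Ts13 ran from -2.39 without replicate 2 to -1.05 without replicate 4, and that of Ts16 from -1.33 without replicate 3 to -0.12 without the 3'-biased replicate 1. With all arrays Slc7a5 passed the test in neither group. It passed in Ts13 without replicate 2 (limma adjusted p = 0.028), a fit that kept the 3'-biased replicates 3 and 4.

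**Figure D4:**
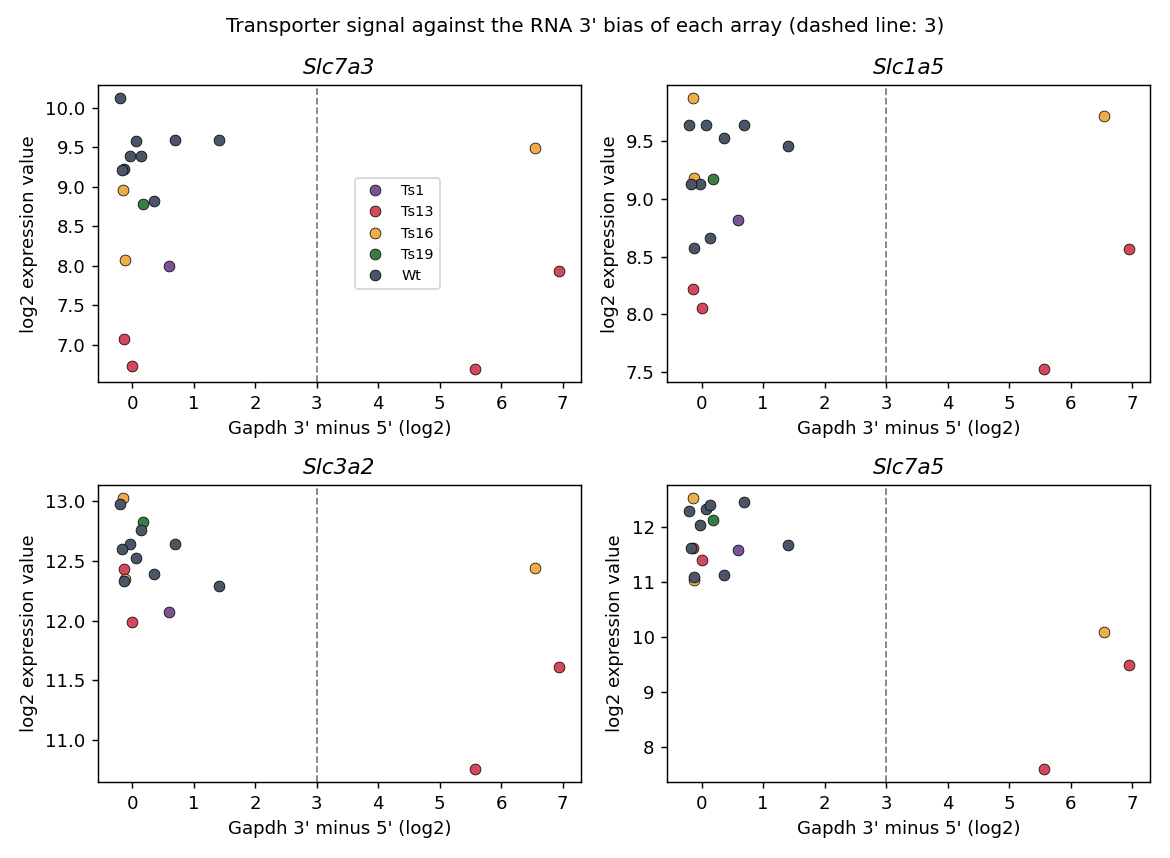
Log2 expression values (vertical axes) of Slc7a3, Slc1a5, Slc3a2 and Slc7a5 against how far the Gapdh control probe sets differed between the 3' and 5' end (horizontal axes, log2), 1 point per array coloured by group, with a dashed line at 3. Slc7a5 is at 7.61 to 10.10 on the 3 arrays right of the line and at 11.03 to 12.52 left of it, while Slc7a3 is also low in the 2 Ts13 arrays left of the line.

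Slc7a6, whose product exchanges cationic amino acids for neutral ones with sodium, was measured by 2 probe sets that differed by a median of 0.20 within an array and at most by 0.87. On the brighter one the values were 9.35, 9.64, 9.88 and 10.24 in Ts13, 10.29, 9.47 and 8.35 in Ts16, 9.03 in Ts1 and 9.12 in Ts19. The Wt lines had 8.98 to 10.14 with a median of 9.34. All groups with several lines overlapped. The difference of Ts13 from Wt was 0.30 ± 0.30 (log2, SE, limma adjusted p = 0.58), or 0.16 on the second probe set, and that of Ts16 was -0.11 ± 0.34 (adjusted p = 0.94), or 0.19 on the second probe set. The largest spread was inside Ts16, where replicate 1 was higher than every Wt line and replicate 3 lower.

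The light chains of epithelia, Slc7a7 and Slc7a8, were below the filter. Slc7a8 lay between 2.13 and 2.35 in all arrays. Slc7a7, which is also known from macrophages, was at 3.78 in Ts16 replicate 1, 3.29 in Wt replicate 2, 3.00 in Ts16 replicate 3 and 2.92 in Ts13 replicate 3, and at 2.39 or less elsewhere. On the 2 arrays with the highest macrophage markers, Ts13 replicate 4 and Wt replicate 8, Slc7a7 was at 2.39 and 2.31.

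Slc1a5, the sodium-dependent exchanger of glutamine, fell in Ts13. Its values were 8.05, 8.22, 8.56 and 7.52 in Ts13. In Ts16 they were 9.72, 9.18 and 9.87, in Ts1 8.82 and in Ts19 9.17, and the Wt lines ran from 8.57 over a median of 9.46 to 9.65. All 4 Ts13 lines were below the lowest Wt line, replicate 3 by a margin of 0.01 log2 units. Of tested genes outside chromosome 13, 1.04% lay wholly below the Wt lines in this way.

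The mean of Slc1a5 was 8.09 ± 0.43 in Ts13 (SD, n = 4) and 9.27 ± 0.42 in Wt (SD, n = 9). The log2 difference was -1.18 ± 0.26 (SE, limma adjusted p = 0.032), 2.27-fold lower in Ts13 and below the Wt mean in 4 of 4 lines. It was -1.13 without the 3'-biased arrays, where 2 Ts13 lines remained and the adjusted p was 0.21. Against Wt lines of the same first number the 4 Ts13 lines differed by -1.59, -0.91, -0.57 and -2.12, and with that number as a block the adjusted p was 0.11. Arrays with macrophage genes stood at the low end of their groups, 7.52 in Ts13 replicate 4 and 8.66 in Wt replicate 8. Without both arrays the difference was -1.07 (limma adjusted p = 0.15). The call also rested on single lines: the adjusted p was 0.17 without Ts13 replicate 4, 0.053 without Wt replicate 3, 0.051 without Wt replicate 4 and 0.055 without Wt replicate 7. In all these settings Slc1a5 was lower in Ts13, with a difference of -1.30 to -0.89 under other processing and of -1.34 to -0.99 without 1 line.

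Slc1a5 did not pass the test in Ts16. It averaged 9.59 ± 0.36 there (SD, n = 3), a difference from Wt of 0.32 ± 0.29 (log2, SE, limma adjusted p = 0.79), with 2 of 3 lines above every Wt line. In Ts16 and Wt pairs of the same replicate number the differences were 0.19, 0.61 and 0.23, and a fit of these pairs alone gave 0.34 (limma adjusted p = 0.61). Set directly against each other, Ts13 was below Ts16 by -1.50 ± 0.33 (log2, SE, limma adjusted p = 0.042). Of 6861 genes in this contrast 0.918% passed the test. The 4 and 3 lines did not overlap, but the share of all genes without overlap between so few lines was not computed. The call of Slc1a5 in this contrast was lost in 15 of 31 other settings, with an adjusted p of up to 0.34. The Ts13 and Ts16 lines share no first number, so the direct contrast sets lines of different numbers against each other. With that number as a block, which draws on the Wt lines of each number, the difference was -1.64 (limma adjusted p = 0.34). The Ts1 line differed from the Wt mean by -0.45 and the Ts19 line by -0.10, both inside the Wt range.

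Slc38a2, the sodium-coupled carrier induced when amino acids run short, had the smallest SD among the Wt lines of the 6 genes past the filter, 0.14; 3.77% of tested genes had a smaller one. It had 13.38, 13.20, 13.77 and 13.74 in Ts13, 13.81, 13.14 and 13.12 in Ts16, 13.39 in Ts1 and 13.12 in Ts19, against 13.21 to 13.61 with a median of 13.26 in Wt lines. The highest 3 values were those of the 3'-biased arrays, 13.74 to 13.81. The difference from Wt was 0.17 ± 0.14 in Ts13 (log2, SE, limma adjusted p = 0.49) and 0.01 ± 0.16 in Ts16 (adjusted p = 0.99). Without the 3'-biased arrays both were negative, -0.06 in Ts13 and -0.22 in Ts16.

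Over the list, 1 of the 5 tested genes other than Slc7a3 passed in Ts13, which was Slc1a5. Among all tested genes outside chromosome 13, 1.27% passed in that comparison (90 of 7104), and 0.69% passed as lower (49 of 7104). At an unadjusted p under 0.05 were 3 of the 5 genes and 21.9% of all tested genes, those on chromosome 13 included. The median log2 difference of the 5 genes was -0.88, beside 0.01 for all tested genes. Without the 3'-biased arrays it was -0.36, beside -0.01 for all tested genes outside chromosome 13. In Ts16, limma called 0 of the 5 genes, and of all tested genes 0.0406% passed (3 of 7381). At an unadjusted p under 0.05 were 0 of the 5 genes and 6.99% of all tested genes. In the contrast of all 9 trisomic lines with the Wt lines, which leaves out genes on the trisomic chromosomes and so Slc3a2, limma called 0 of 4 genes. Of all genes in it 0.0647% passed (4 of 6187). At an unadjusted p under 0.05 were Slc1a5 and Slc7a5, with differences of -0.48 and -1.06, beside 6.66% of all genes in the contrast. The Ts13 and Ts16 comparisons share the Wt lines.

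The promoters of Slc38a2 and Slc3a2 are shown as the gene with the smallest SD among Wt lines of the 6 past the filter and as the only gene of the list with an extra copy. The 250 bases before an annotated start come from RefSeq (GRCm38.p6), 5′ to 3′ on the strand of the gene, and capitals mark GGGCGG on either strand, a GC box. The table had a window for 6 of the 10 genes. The start of Slc3a2 used here lies inside the annotated span of the gene.
Slc38a2 promoter, chr15:96699729-96699978, minus strand: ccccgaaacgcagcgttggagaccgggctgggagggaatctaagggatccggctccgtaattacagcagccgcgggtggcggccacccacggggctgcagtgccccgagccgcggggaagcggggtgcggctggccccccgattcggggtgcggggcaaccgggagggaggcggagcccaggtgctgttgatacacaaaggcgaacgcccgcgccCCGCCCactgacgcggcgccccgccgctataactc
Slc3a2 promoter, chr19:8713898-8714147, minus strand: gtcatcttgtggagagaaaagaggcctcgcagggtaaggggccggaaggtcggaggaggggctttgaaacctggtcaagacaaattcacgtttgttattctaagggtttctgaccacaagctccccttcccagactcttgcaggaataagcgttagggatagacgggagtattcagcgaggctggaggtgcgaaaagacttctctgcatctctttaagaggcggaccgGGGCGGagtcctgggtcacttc
Each window holds 1 GC box, and 32.7% of the 32851 windows of this length in the table hold at least 1. The letters TGATGNAA, the core of the element bound by Atf4 in amino acid shortage, are in neither window on either strand and in 3.45% of all windows. CACGTG (6.02% of all windows) and CCAAT (33.8%) are also in neither. Only these 250 bases were searched, so the absence of letters here does not show whether a gene carries the Atf4 element elsewhere.

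Genes around the transporters were looked at in 6 lists. In Ts13 the amino acid response, the program that Gcn2 (Eif2ak4) and Atf4 switch on in amino acid shortage, had 0 of 25 genes that rose and 2 that fell. These were Cth, the enzyme that makes cysteine from cystathionine, and Psat1 of serine synthesis. Of all tested genes outside chromosome 13, 0.69% passed as lower. At an unadjusted p under 0.05 were 12 of the 25 genes, beside 21.9% of all tested genes, those on chromosome 13 included. Cth was at 9.80, 10.07, 10.25 and 9.78 in Ts13 and at 10.58 to 11.87 in Wt lines, a difference of -1.13 ± 0.25 (log2, SE, limma adjusted p = 0.032) with no overlap. Such a gap below all Wt lines was found in 1.04% of tested genes outside chromosome 13. Cth was also at 9.87 in Ts1 and 9.59 in Ts19, but at 11.84, 10.55 and 11.40 in Ts16.

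Psat1 was at 13.06 and 13.38 in Ts13 replicates 1 and 2, at 12.15 in replicate 3 and lowest in replicate 4, with a mean of 12.65 ± 0.68 in Ts13 (SD, n = 4), and at 13.33 to 13.72 in Wt lines. This was a difference of -0.89 ± 0.20 (log2, SE, limma adjusted p = 0.032). The lowest 2 values were those of the 3'-biased Ts13 lines, whereas the 3'-biased Ts16 replicate 1 was at 13.43. Without the 3'-biased arrays the difference was -0.32 (adjusted p = 0.43), whereas that of Cth was -1.17 (adjusted p = 0.17). The median of the 25 genes in Ts13 was -0.35 with all arrays and -0.14 without the 3'-biased ones, beside 0.00 and -0.01 for all tested genes outside chromosome 13.

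Other lists had almost no single gene past the test in Ts13. Counts at an unadjusted p under 0.05 are to be read beside the 21.9% of all tested genes at that level. That share includes genes on chromosome 13, which the list counts leave out. Psat1 was also the 1 of 14 genes of glutamine and glutamate metabolism that fell, and 6 of the 14 had an unadjusted p under 0.05. Asns, the asparagine synthetase, was at -0.35 (adjusted p = 0.14). Of the 10 further amino acid transporters past the filter limma called 0, with 3 at an unadjusted p under 0.05. Among them Slc38a4, a relative of Slc38a2, was at -0.45 (adjusted p = 0.64) and Slc38a10 at 0.45 (adjusted p = 0.12). Of 17 aminoacyl-tRNA synthetases, which load tRNAs, limma called 0 and 8 had an unadjusted p under 0.05. Nars was at -0.44 (adjusted p = 0.21), and the list median was -0.56, but -0.12 without the 3'-biased arrays.

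For arginine and polyamine metabolism limma called 0 of 10 genes in Ts13, with 3 at an unadjusted p under 0.05. Odc1, the first enzyme of polyamine synthesis, was at -0.43 (adjusted p = 0.41), and Oaz1, its antizyme, at -0.12 (adjusted p = 0.44). The Odc1 values in Ts13 replicates 1 to 4 were 13.47, 11.61, 13.52 and 13.55, beside a Wt mean of 13.46. Without replicate 2 the difference of Odc1 was 0.05. For amino acid sensing by mTORC1 limma called 0 of 21 genes, with 3 at an unadjusted p under 0.05, and the list median was 0.01. Rheb, the GTPase that activates mTORC1, was at 0.17 (adjusted p = 0.52) and Lamtor5 of the lysosomal scaffold at -0.23 (adjusted p = 0.51).

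In Ts16 limma called 0 genes of all 6 lists. At an unadjusted p under 0.05 there were 2 of 10 further transporters, 2 of 25 amino acid response genes, 0 of 18 synthetases, 2 of 10 arginine and polyamine genes, 0 of 14 glutamine genes and 1 of 21 sensing genes, beside 6.99% of all tested genes. That share includes genes on chromosome 16. The list medians lay between -0.35 and -0.04, beside -0.06 for all tested genes outside chromosome 16. In the contrast of all trisomic lines limma also called 0 genes, with 1 of 10, 4 of 21, 3 of 15, 1 of 10, 1 of 10 and 0 of 21 at an unadjusted p under 0.05 in the same order of lists, beside 6.66% of all genes in the contrast.

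**Figure D5:**
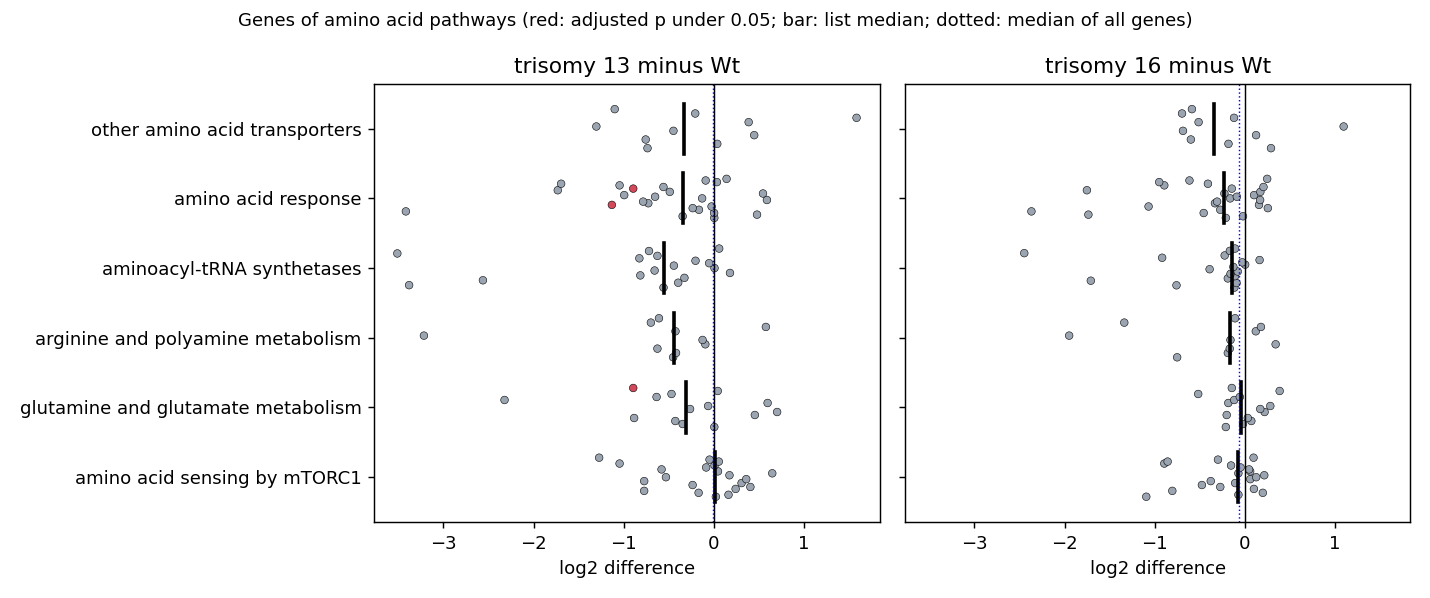
Log2 differences from Wt (horizontal axis) of single genes in 6 lists of amino acid pathways (rows), for trisomy 13 (left) and trisomy 16 (right); red points passed at a limma adjusted p under 0.05, thick bars are list medians and the dotted line is the median of all tested genes. Only Cth and Psat1 are red, both left of zero in trisomy 13, and Psat1 appears in 2 lists.

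Genes were ranked by the likeness of their pattern over the 18 arrays to that of Slc7a3. Likeness was taken as the mean absolute difference between log2 values, each centred on the Wt mean of its gene. The nearest of 7380 genes were Mad2l2, an adaptor of translesion DNA synthesis (0.57), Idh2, the mitochondrial isocitrate dehydrogenase (0.58), Eefsec, the elongation factor for selenocysteine (0.60), Zswim1 (0.60) and Akna (0.61), and the median gene was at 0.97. In Ts13 their means were between -1.75 and -1.12 relative to Wt, against -2.32 for Slc7a3. The ranking used these same values, so low means in Ts13 follow from it and are no further result. In Ts1, Eefsec and Zswim1 were above the Wt mean, at 0.07 and 0.46, where Slc7a3 was at -1.44.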

How the data were processed

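Messenger RNA of 18 lines was measured on 18 Affymetrix arrays with 22690 probe sets. The deposited log2 values were made by the authors with GCRMA and affy, per the submitters' processing notes; neither versions nor settings are given. Arrays give no counting depth, and their number limits the precision. A probe set was used if it was no control (64 are) and the platform's gene table lists 1 gene for it (20380 probe sets, 12393 genes). The brightest probe set stood for a gene, and the 7381 genes with a mean of at least 4 were tested. Chromosomes come from RefSeq (GRCm38.p6).

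Groups were compared with limma 3.58.1 in R 4.3.3 (lmFit, eBayes with trend; 5 groups, 13 residual degrees of freedom), two-sided, with Benjamini-Hochberg adjustment over all tested genes and a threshold of 0.05. Ts1 and Ts19 have 1 array each and no test. The procedure was tested on simulated data. The list, the pathway lists and the tests were chosen with earlier results of these data known. So was the limit of 3 on the Gapdh difference that marks 3'-biased arrays. The contrast of Ts13 with Ts16 and the Xist, macrophage and paired Ts16 settings were added after the values were seen. The text names all 10 transporters, up to 4 genes a pathway list past the threshold (filled up to 2 with the brightest genes) and the 5 genes most like Slc7a3; Iars, named by that rule, is on chromosome 13 and was at -0.08 in Ts16 (limma adjusted p = 0.92).

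Replicate numbers paired the Ts16 and Wt lines 1 to 3 (correlations of deviations from the group means 0.52, 0.41 and 0.58) but not the Ts13 lines (-0.26 to -0.03). Centring arrays on their medians moved the median of all tested genes in Ts13 from 0.01 to 0.31. Figures were drawn with matplotlib 3.10.9.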

Additional observations from a re-analysis of the deposited data

Results flagged for a closer look

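The single transporter values flagged as far from the rest of their group were all near background. Dixon's test was applied to 26 sets of values, and chance marks about 1 in 20 of these. Slc7a1 in Ts13 replicate 2 was at 1.95, against 2.04 to 2.06 in the 3 other Ts13 lines. Slc7a7 was at 2.92 in Ts13 replicate 3, against 2.36 to 2.39 in the other Ts13 lines. In Wt replicate 2 it was at 3.29, against 2.17 to 2.37 in the other Wt lines.

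For Slc1a5 the levels in Ts13 and Ts16 lines differed, with a log2 difference of Ts13 from Ts16 of -1.50 (limma adjusted p = 0.042). Ts13 and Ts16 lines share no first number, so lines of different numbers are compared here. With the first number as a block the difference was -1.64 (limma adjusted p = 0.34). This contrast was added after the values were seen, and the call was lost in 15 of 31 other settings, with an adjusted p of up to 0.34.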

How the results depend on the processing

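Slc7a3 was lower in Ts13 and over all 9 trisomic lines under every setting run: its log2 difference in Ts13 was -2.63 to -2.03 with other processing and -2.60 to -2.19 without 1 line, and over all lines -1.65 to -1.30 without 1 line. In Ts16 it was -0.92 to -0.21 without 1 line. Of the tested transporters 1 was called in Ts13, and 0 to 3 without 1 line: Slc3a2 joined Slc1a5 without Ts13 replicate 1 (adjusted p = 0.049), Slc3a2 and Slc7a5 without Ts13 replicate 2 (0.014 and 0.028), and 0 were called without Ts13 replicate 4 or Wt replicate 3, 4 or 7. The fits in which Slc3a2 or Slc7a5 was called kept the 3'-biased Ts13 replicates 3 and 4. Over all genes limma called 130 in Ts13 (26 to 734 without 1 line), 3 in Ts16 (0 to 8) and 4 over all trisomies (0 to 7). Without the filter 8 were called in Ts16 and 11 over all trisomies. Centring arrays on their medians left 0 transporters in Ts13, 0 genes in Ts16 and 1 over all trisomies, and turned Slc7a6 in Ts16 to 0.10, Oaz1 in Ts13 to 0.17 and Lamtor5 in Ts13 to 0.058; quantile normalization left 0 transporters and 1 gene over all trisomies. With the mean of all probe sets Slc7a6 in Ts16 was 0.042 and Asns fell in Ts13 (-0.58, adjusted p = 0.031). With the first number as a replicate block 6 genes and 0 transporters were called in Ts13, 0 genes in Ts16 and 0 over all trisomies, and Slc38a2 in Ts16 was -0.056. With the replicate number as a replicate block these counts were 9, 0, 0 and 0, and Slc3a2 in Ts16 was -0.12, Slc7a6 over all trisomies -0.22 and Slc38a4 in Ts13 0.043. That number did not pair the Ts13 lines with Wt lines. Ts16 and Wt replicates 1 to 3, which the replicate number pairs, gave 0 genes as a blocked fit of their own and -0.056 for Slc38a2. Without the 3'-biased arrays 14 genes and 0 transporters were called in Ts13, 0 in Ts16 and 2 over all trisomies, and Slc38a2 was -0.061 in Ts13, -0.22 in Ts16 and -0.13 over all trisomies, with Slc7a6 at -0.32 over all trisomies. With the Gapdh difference as a covariate 46 genes and 0 transporters were called in Ts13 and 14 genes in Ts16, Slc7a6 was -0.089 in Ts13 and -0.25 over all trisomies, and Slc38a2 was -0.079 in Ts13, -0.16 in Ts16 and -0.11 over all trisomies. Fitting only the groups compared, which for all trisomies kept every array and merged the trisomic lines into 1 group, gave 0 genes over all trisomies. Among settings chosen after seeing the data, an Xist level above 8 as a covariate put Slc38a2 in Ts16 at -0.00019 and Slc7a6 over all trisomies at -0.073. Leaving out the 2 arrays with macrophage genes, also chosen after seeing the data, left 13 genes and 0 transporters in Ts13. It left 0 genes over all trisomies, and Slc7a6 there at -0.12. Without 1 line, Slc7a6 ran from -0.57 to 0.40 in Ts16, from -0.10 to 0.15 over all trisomies and from -0.10 to 0.87 in Ts13 against Ts16, Slc38a2 in Ts16 from -0.22 to 0.12, Slc3a2 in Ts16 from -0.18 to 0.16 and Odc1 in Ts13 from -0.60 to 0.052. Cth and Psat1 kept their direction in Ts13 and lost the call in 10 and 13 of 31 settings. The cause of these changes was not tested. Signal near background limits Slc7a1, Slc7a2, Slc7a7 and Slc7a8.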
